A study of Mus musculus with 7 samples.

Results

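The loci described here are the genes that a RefSeq table of the mouse assembly GRCm38.p6 (mm10) classes as small nuclear RNA (snRNA). The table holds 1004 such genes among 49997 in all, and 997 of them lie on assembled chromosomes and could be searched. The other 7 lie on scaffolds, carry LOC symbols and were not searched. A gene was counted as carrying a peak when the centre of a peak lay inside the gene or within 500 bp of it. Among the 997 genes, 17 have a symbol of their own (16 beginning with Rnu or Rn7sk, and Snord73b), and 980 are predicted genes known only by a number, 909 with Gm and 71 with LOC symbols. They are short, from 59 to 332 bp with a median of 107 bp.

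The peaks come from chromatin immunoprecipitation and sequencing (ChIP-seq) of wild-type mouse branchial arches dissected at 10.5 days post coitum and cross-linked with 1.5 mM EGS, which joins proteins, and 1% formaldehyde, which joins proteins to DNA. Of 7 libraries, the lists of the β-catenin BA2 and the Pygo2 BA2 library were used, and the headers name IgG BA1 as the control of both. The titles of the lists place BA2 directly after IgG instead, which may refer to the control or to the precipitated library, and the headers were followed. What BA1 and BA2 stand for is not given in the labels, about 200 arches were dissected, and no strain is named. The β-catenin library had 13672937 tags and 1079 peaks, and the Pygo2 library had 15009636 tags and 7150 peaks. With 1 library per protein no value has a replicate error, so the intervals given on shares are 95% Wilson intervals, which cover counting error only, and nothing here was tested between embryos. Peak positions give no expression level, so marker genes of the arches could not be checked.

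Small nuclear RNAs are the RNA cores of the machines that process other RNAs. U1, U2, U4, U5 and U6 build the major spliceosome, and U11 and U12 belong to the minor spliceosome that removes a rare class of introns. U7 directs the cutting of histone messenger RNAs, 7SK holds the elongation factor P-TEFb in an inactive state, and U3, strictly a nucleolar RNA, guides the cutting of ribosomal RNA precursors. Most of these genes are transcribed by RNA polymerase II, from promoters that bind the SNAPc complex. U6 and 7SK are transcribed by RNA polymerase III. The mouse genome also holds a large number of snRNA-like copies, many of them thought to be inactive. β-catenin carries Wnt signals into the nucleus, where Bcl9 joins it to Pygo2, a reader of histone marks.

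For 2 of the named genes, part of the sequence under or beside a Pygo2 peak could be read, because the RefSeq promoter window of a neighbouring gene covers it. The first is the window of Grcc10 on chromosome 6 (chr6:124741020-124741319, GRCm38.p6, printed on the + strand), which contains the whole of Rnu7, the U7 gene. Its capitals mark the 62 bp of Rnu7, and the Pygo2 peak covers bases 79 to 245 of the window. The second is the window of the long non-coding RNA gene C920006O11Rik on chromosome 9 (chr9:78175664-78175963, GRCm38.p6, + strand), which lies just beyond Rn7sk, the 7SK gene. Its capitals mark the 93 bases that lie in the Pygo2 peak nearest to Rn7sk. The Rnu7 window is shown because it holds the gene and the whole peak. The Rn7sk window holds no base of Rn7sk and 93 of the 167 bp of the peak, and is shown for the sequence under that peak.
Rnu7: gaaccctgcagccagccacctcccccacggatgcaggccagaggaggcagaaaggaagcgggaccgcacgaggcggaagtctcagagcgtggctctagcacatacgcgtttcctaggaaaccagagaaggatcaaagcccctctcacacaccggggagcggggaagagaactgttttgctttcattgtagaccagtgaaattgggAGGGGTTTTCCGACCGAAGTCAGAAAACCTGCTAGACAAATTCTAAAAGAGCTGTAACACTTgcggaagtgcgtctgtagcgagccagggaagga
Rn7sk: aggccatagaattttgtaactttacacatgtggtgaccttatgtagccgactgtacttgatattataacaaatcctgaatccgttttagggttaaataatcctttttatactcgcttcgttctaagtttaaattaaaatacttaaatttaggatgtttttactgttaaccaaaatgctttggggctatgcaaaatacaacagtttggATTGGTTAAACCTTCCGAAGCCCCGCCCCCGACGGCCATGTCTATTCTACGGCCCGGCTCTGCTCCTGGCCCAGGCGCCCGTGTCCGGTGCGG

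In the first window the word TTTGTCTAG, taken from the Sm-binding site of U7 RNA, was found on the - strand at bases 237 to 245, inside Rnu7. By this word Rnu7 is read from right to left in the printed sequence, and the centre of the peak then lies beyond its downstream end. The word occurs on either strand in 0.222% of 32851 promoter windows of the same length. Of the words searched for promoter elements, the TCF/LEF word CTTTGAT was found once in the Rnu7 window, on the - strand at bases 131 to 137 and within the peak, and it occurs in 3.73% of all windows. The TATA word TATAAA was found once in the Rn7sk window, on the - strand at bases 105 to 110 and outside the peak, and it occurs in 13.6% of all windows. The octamer word ATGCAAAT, the proximal element word ACCNTNAC and the ZNF143 word CCCANNATG are not in these windows, and occur in 1.74%, 8.78% and 5.01% of all windows. Read from right to left, Rnu7 has only the bases after 267 of the 300 on its upstream side. The TCF/LEF match then lies beyond its downstream end. The Rn7sk window holds no base of Rn7sk, whose strand is not given. The absence of a word here therefore does not show that the promoter of either gene lacks it. The matches describe the letters of the windows and do not show that a factor binds there.

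Few snRNA loci carried a peak. A Pygo2 peak lay at 28 of the 997 genes (2.81%, interval 1.95 to 4.03%), and a β-catenin peak at 6 (0.602%, interval 0.276 to 1.31%). The corresponding shares over all genes on assembled chromosomes were 12.1% for Pygo2 and 1.85% for β-catenin, but most genes are far longer and so have more room for a peak. Over the 4381 other genes no longer than the longest snRNA gene, a Pygo2 peak was present at 2.94% and a β-catenin peak at 0.776%. These short genes include tRNA genes. A Pygo2 peak lay at 129 of the 4381 short genes and at 90 of the 425 tRNA genes. For β-catenin the counts were 34 and 25. The snRNA genes as a whole thus sat near this mixed background for both proteins. A background without tRNA genes was not computed. No peak of either protein lay at 965 of the 997 genes.

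The Pygo2 peaks were unevenly spread between named and predicted genes. Of the 17 named genes, 10 had a Pygo2 peak (58.8%, interval 36.0 to 78.4%), against 18 of the 980 predicted genes (1.84%, interval 1.16 to 2.88%). The difference was 57.0 percentage points, with a Newcombe interval of 34.1 to 76.6. When only peaks that overlap the gene were counted, 3 of 17 named and 3 of 980 predicted genes had one, a difference of 17.3 points, and the number of genes with a Pygo2 peak was 6. With LOC symbols 2 of 71 predicted genes had one (2.82%), and with Gm symbols 16 of 909 (1.76%). Neighbouring genes can share a peak and are not independent, so these intervals may be too narrow. For β-catenin the order was the other way: none of the 17 named genes had a peak, against 6 of the 980 predicted genes (0.612%, interval 0.281 to 1.33%). The Wilson interval for the named genes reached 18.4%, and a count of 0, taken as allowing 3 genes, allows a share of up to 17.6%. The difference of -0.61 percentage points had an interval of -1.33 to 17.8, so its direction was not resolved, and at a window of 1000 bp it was 5.27 points. At 250 bp the count of genes with a β-catenin peak was 3.

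**Figure D1:**
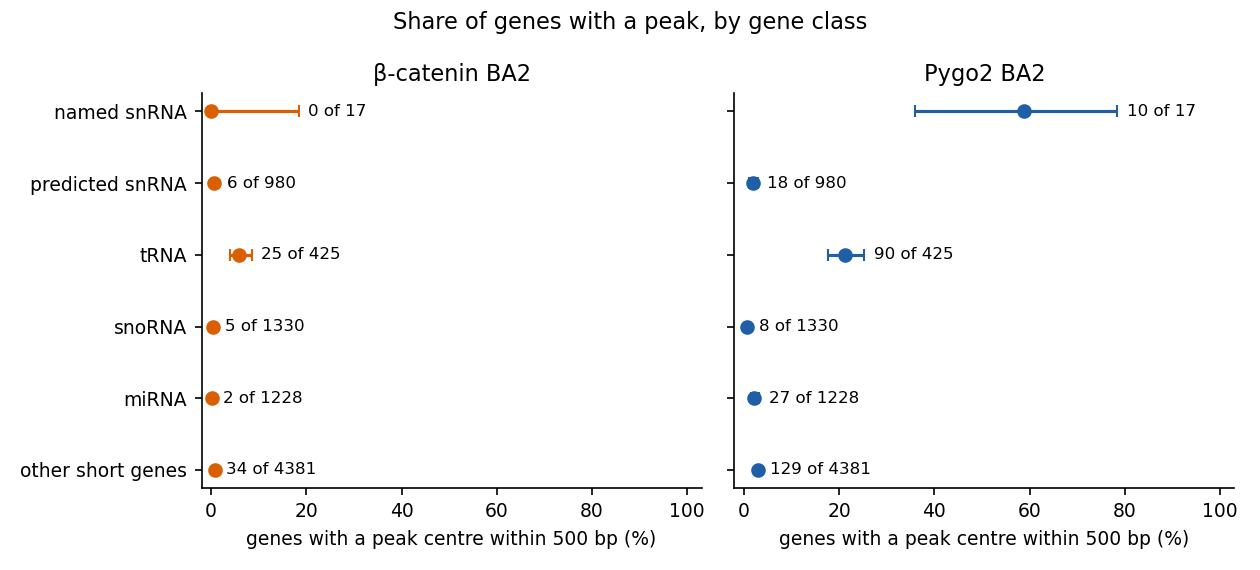
Share of genes with a peak centre within 500 bp, in percent, for the β-catenin BA2 (left) and Pygo2 BA2 (right) libraries; points are shares, bars are 95% Wilson intervals, and the labels give the counts. For Pygo2 the named snRNA genes lie at 58.8% and the predicted ones at 1.84%, beside the 2.94% of other short genes, while all β-catenin shares lie at or below 5.88%.

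Other families of short RNA genes are set beside these values as a description, without a test. A Pygo2 peak lay at 90 of 425 tRNA genes (21.2%, interval 17.6 to 25.3%), at 27 of 1228 miRNA genes (2.20%) and at 8 of 1330 snoRNA genes (0.602%). For β-catenin the counts were 25 tRNA genes (5.88%), 2 miRNA genes (0.163%) and 5 snoRNA genes (0.376%).

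Among the RNAs of the major spliceosome, 3 of 7 named genes had a Pygo2 peak. Rnu1a1, a gene of U1, which recognises the start of an intron, lies on chromosome 11 (87422867 to 87423030) inside the annotated span of Tex14, and the peak at 87422634 to 87422800 had its centre 150 bp below it (below and above mean towards lower and higher coordinates). Rnu2-10, a gene of U2, which binds the branch point, lies on chromosome 11 (101658238 to 101658424) and was flanked by 2 Pygo2 peaks. These spanned 101657982 to 101658148 and 101658524 to 101658690, with centres 173 bp below and 183 bp above the gene. Rnu5g, a gene of U5, which holds the exons in place, lies on chromosome 9 (65201726 to 65201841) inside the long non-coding RNA gene Gm40527. Its peak at 65201561 to 65201727 had its centre 82 bp below the gene and overlapped it by 2 bp. The remaining U1 genes were far from a Pygo2 peak, with the nearest one 31.5 kb from Rnu1b1, 45.6 kb from Rnu1b2 and 19.2 kb from Rnu1b6. For Rnu6, the named gene of U6, the catalytic RNA of the spliceosome, it was 439 kb away.

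In the minor spliceosome 1 of 2 named genes had a Pygo2 peak. Rnu11 on chromosome 4 (132270079 to 132270186), whose RNA recognises the start of minor introns, had a Pygo2 peak at 132270189 to 132270355 that began 3 bp beyond the gene and had its centre 86 bp from it. Rnu12 on chromosome 15 (83149645 to 83149794), whose RNA pairs with the branch point, had its nearest Pygo2 peak 74.0 kb away. Its nearest β-catenin peak was 529 kb away, and that of Rnu11 was 3.64 kb away.

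Rnu7 and Rn7sk, whose RNAs act on histone messages and on elongation, both had a Pygo2 peak. The peak at Rnu7 (chromosome 6, 124741225 to 124741286) spanned 124741098 to 124741264, overlapped the gene by 40 bp and had its centre 44 bp below it, and the same peak lay 112 bp from an end of the protein-coding gene Grcc10. At Rn7sk (chromosome 9, 78175302 to 78175633) the nearest Pygo2 peak spanned 78175871 to 78176037, with its centre 321 bp above the gene. A further Pygo2 peak at 78176481 to 78176647 had its centre 931 bp away, outside the window. It overlapped a β-catenin peak at 78176442 to 78176610 by 130 bp, whose centre was 893 bp from the gene. This was the smallest distance of a β-catenin peak from any of the 17 named genes. The centre of the nearest Pygo2 peak lay inside C920006O11Rik, whose promoter window is printed above.

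Of the U3 genes, 4 of 5 had a Pygo2 peak. Rnu3a on chromosome 10 (40258468 to 40258679) held the centre of its peak, at 40258471 to 40258637, inside the gene, and all 167 bp of the peak overlapped it. The other U3 genes lie together on chromosome 11 inside Tex14. Rnu3b1 (87443237 to 87443451) had peaks on both sides, with centres 393 bp below and 105 bp above the gene. Rnu3b3 (87448627 to 87448841) had one 210 bp above it, and Rnu3b4 (87462286 to 87462503) one 366 bp above it. Rnu3b2 (87471368 to 87471582) had its nearest Pygo2 peak 8.50 kb away. Snord73b, which lies inside the ribosomal protein gene Rps3a1, had its nearest Pygo2 peak 2.06 kb away.

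**Figure D2:**
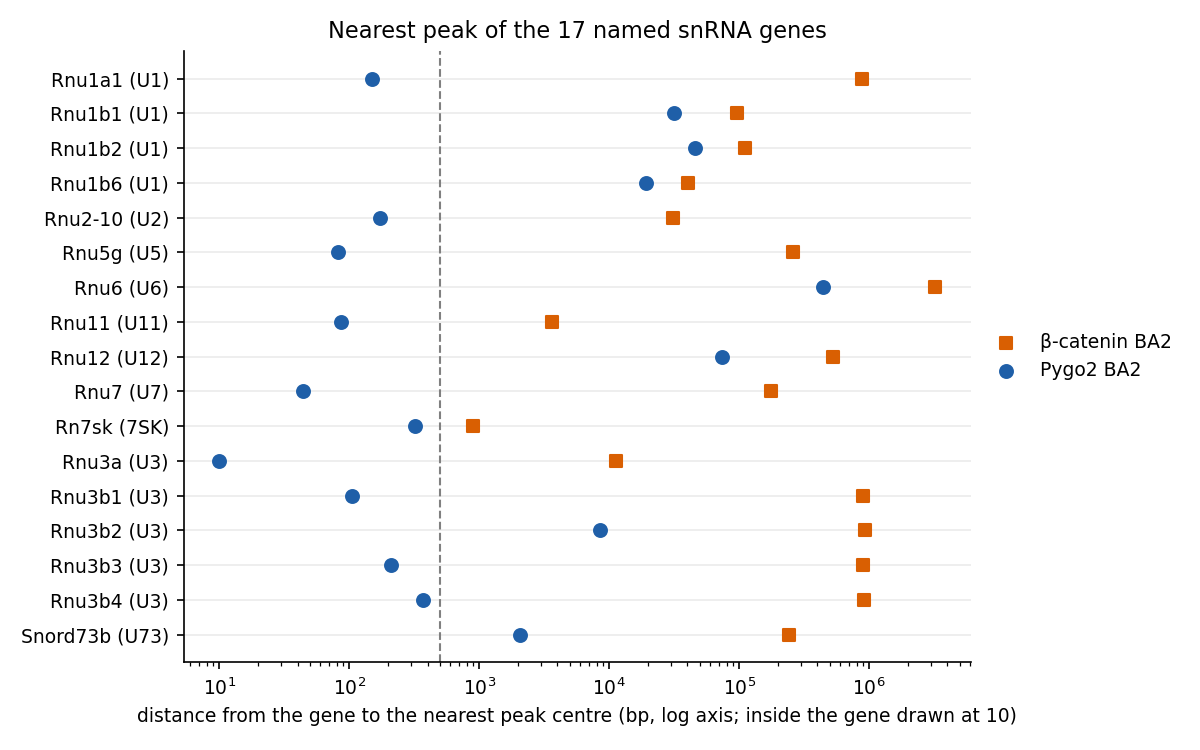
Distance from each of the 17 named snRNA genes to its nearest peak centre, in bp on a log axis, for β-catenin (squares) and Pygo2 (circles), with the family of the RNA in brackets and a dashed line at 500 bp; Rnu3a, whose Pygo2 peak is centred inside the gene, is drawn at 10. For Pygo2, 10 genes lie left of the line, and no β-catenin square does, the nearest being Rn7sk at 893 bp.

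Distances to the nearest peak, taken over all genes with a peak on their chromosome, were smaller at the median for named than for predicted genes for both proteins. The median distance to a Pygo2 peak was 0.321 kb for named genes (quartiles 0.105 and 19.2 kb) and 178 kb for predicted genes (quartiles 44.9 and 579 kb). For β-catenin the medians were 241 kb for named and 1091 kb for predicted genes, although its share within 500 bp had the opposite order. The predicted median leaves out 1 gene on a chromosome without a β-catenin peak. Around the named genes, 12 pairs of gene and Pygo2 peak lay within 500 bp, and 1 between 500 and 1000 bp. There was 1 between 1000 and 2000 bp and 3 between 2000 and 5000 bp. Around the predicted genes the counts of gene and peak pairs were 23, 8, 5 and 29. These ranges differ in width. Per kb and 100 genes the pairs numbered 70.6, 5.88, 2.94 and 2.94 for named genes. For predicted genes they numbered 2.35, 0.816, 0.255 and 0.493. The first range also counts centres inside the gene, whose length is not in its width, so its values are set too high. Near the limit of the window, a Pygo2 peak at Gm24265 lay just inside, at 498 bp, and those nearest to Gm25579 and Gm22614 just outside, at 541 and 557 bp. For β-catenin the peak at Gm25101 lay inside, at 499 bp, and that at Rn7sk outside, at 893 bp.

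Most Pygo2 peaks at snRNA genes lay beside the gene and not on it. The 28 genes and 34 peaks formed 35 pairs, with a median distance of 172 bp between gene and peak centre. The centre was inside the gene in 2 pairs, at Rnu3a and Gm25099, and 6 pairs had any overlap between peak and gene. In 29 pairs the peak, which is 167 bp wide, did not touch the gene. Peaks on both sides were present at 6 genes, namely Rnu2-10, Rnu3b1, Gm24265, Gm24950, Gm25360 and LOC115487916. At LOC115487916 the centres of the Pygo2 peaks were 171 bp below and 172 bp above the gene, and at Gm24950 175 bp and 190 bp, close to the 173 and 183 bp of Rnu2-10. The caller kept Pygo2 peaks at least 332 bp apart, so neighbouring peaks of smaller spacing could not be listed. Copies of a snRNA can be nearly identical in sequence, and how tags that match several copies were handled is not given in the sources used here, so which copy a peak on or next to a gene belongs to is uncertain. The part of this in the gaps over the genes was not tested.

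**Figure D3:**
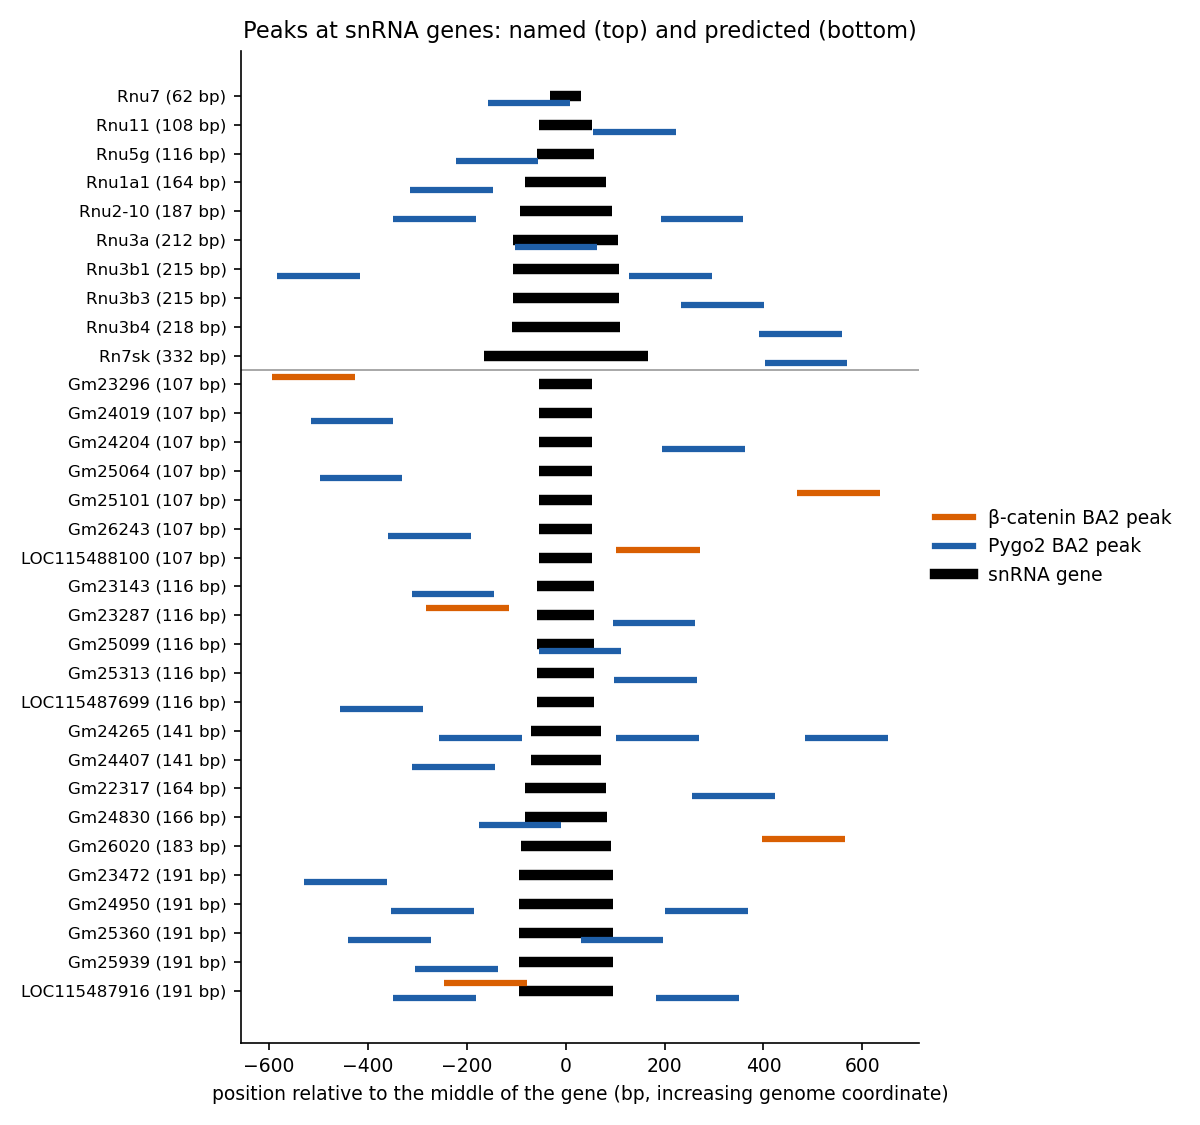
Position of each peak within 500 bp of a snRNA gene, in bp from the middle of the gene along increasing genome coordinates, for 10 named genes (top) and 22 predicted genes (bottom), each with its length in brackets; black bars are genes, orange bars β-catenin peaks and blue bars Pygo2 peaks. Most bars lie to one side of the gene, with peaks on both sides at 6 genes for Pygo2, and 6 of 35 Pygo2 pairs overlap the gene.

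Of the 28 genes with a Pygo2 peak, 18 lay close to another snRNA gene. When snRNA genes with gaps of at most 20 kb were joined into chains, a grouping made after the peaks had been seen, 67 genes fell into 26 chains and 930 stood alone. A Pygo2 peak lay at 18 of the 67 genes in chains (26.9%, interval 17.7 to 38.5%) and at 10 of the 930 single genes (1.08%, interval 0.585 to 1.97%). Genes of the same chain can share a peak, as Gm24265 and Gm24407 do, and are not independent, so the intervals may be too narrow. Among predicted genes alone the shares were 12 of 57 (21.1%) and 6 of 923 (0.650%). For β-catenin 4 of the 67 genes in chains had a peak and 2 of the 930 single genes. The 5 chains of 3 or more genes held 25 genes, of which 14 had a Pygo2 peak. Within these chains and 2 kb around them the lists held 19 Pygo2 peaks and 2 β-catenin peaks, and the centre of each of them was within 500 bp of a snRNA gene.

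The chain around Rnu2-10 on chromosome 11 (101627366 to 101658424) holds 4 genes, 3 of them predicted and 191 bp long. Pygo2 peaks flanked LOC115487916, Gm24950 and Rnu2-10, and the fourth gene, Gm23971, had none within 500 bp. LOC115487916 also had a β-catenin peak, at 101627215 to 101627383, which overlapped the gene by 18 bp and the lower Pygo2 peak (101627112 to 101627278) by 64 bp. An end of the protein-coding gene Rdm1 lies 57 bp from the centre of this β-catenin peak. On chromosome 1 a chain of 4 genes of the same length of 191 bp (72226240 to 72255198) had Pygo2 peaks at Gm25360, on both sides, at Gm23472 and at Gm25939, but not at Gm24497. The nearest protein-coding genes were Mreg and Pecr, at 4.29 kb or more.

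On chromosome 4 (117189942 to 117210959) a chain of 3 predicted genes, each 116 bp long like Rnu5g, had a Pygo2 peak at every gene. The peak of Gm25099, at 117189945 to 117190111, overlapped the gene by 113 bp and was the 17th of the Pygo2 list. That of Gm23143 lay 171 bp below its gene. Gm23287 had a Pygo2 peak 121 bp above it and a β-catenin peak 141 bp below it, at 117210619 to 117210787, which did not overlap. The nearest protein-coding genes were Kif2c and Armh1, at 2.25 kb or more. Gm25313, also 116 bp long, is the neighbour of Rnu5g on chromosome 9 and had a Pygo2 peak 124 bp above it.

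The chain that holds Rnu1a1 and the Rnu3b genes on chromosome 11 (87422867 to 87471582) counts 7 genes, of which Gm22068, Gm23137 and Rnu3b2 had no peak within 500 bp. On chromosome 12 a chain of 7 predicted genes (54696782 to 54738622), each of 164 bp like Rnu1a1, had a single Pygo2 peak, 258 bp above Gm22317. A pair of genes of 141 bp on chromosome 5, Gm24265 (115489459 to 115489599) and Gm24407 (115490254 to 115490394), lay among 3 Pygo2 peaks at Sirt4, a gene for a mitochondrial sirtuin. The centres of these peaks were 907, 549 and 167 bp from an end of Sirt4, and the last of them, at position 3 of the Pygo2 list, was 157 bp from Gm24407.

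**Figure D4:**
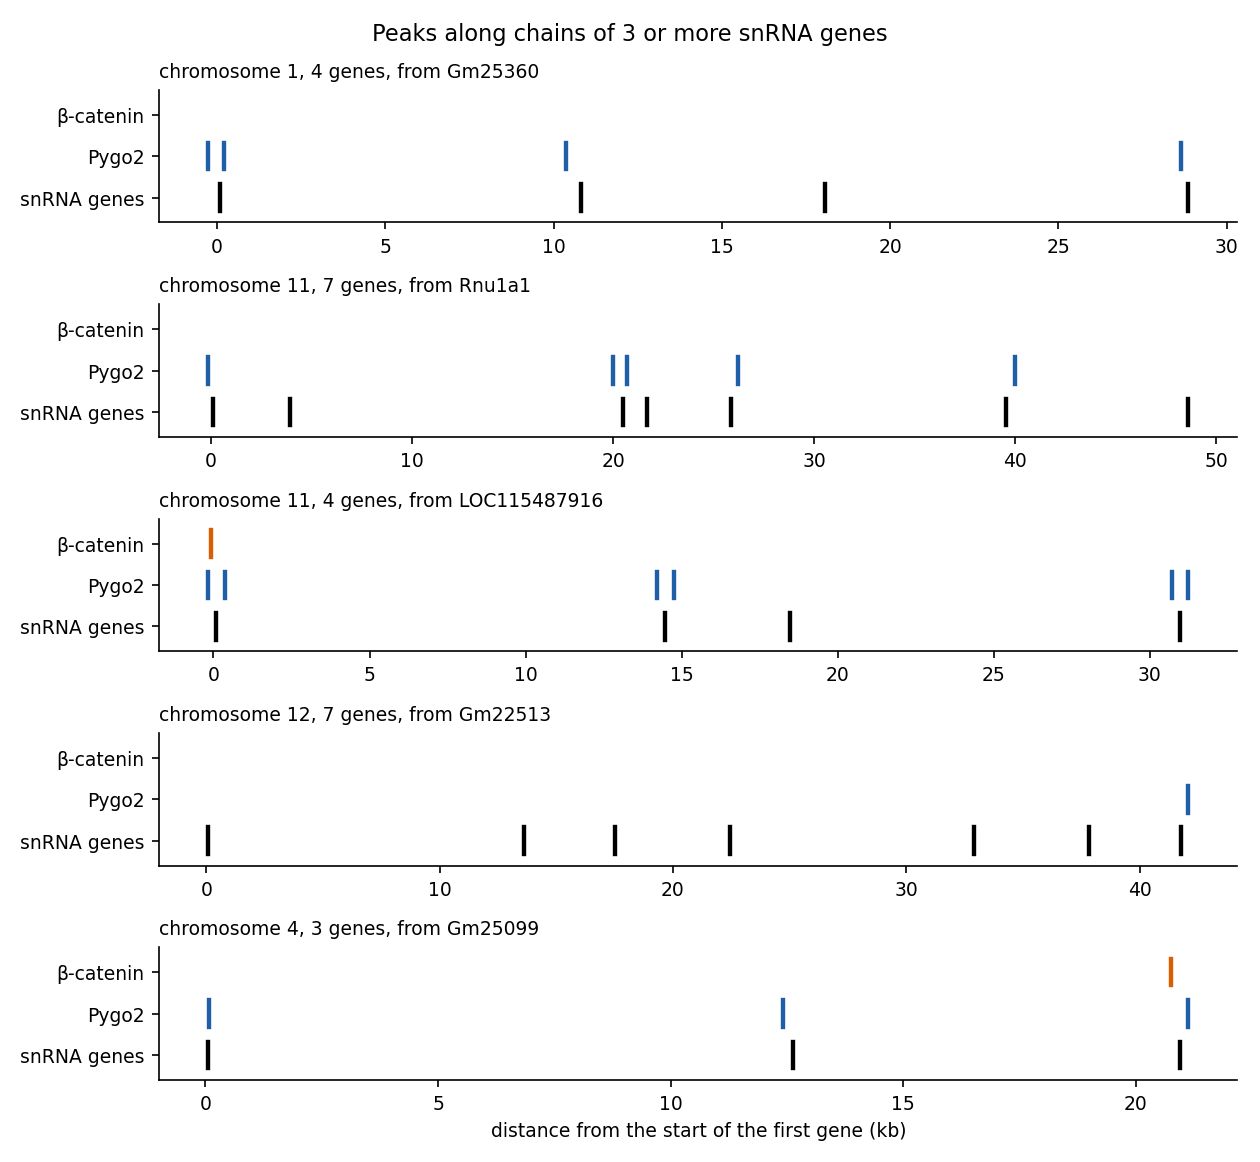
Positions of snRNA genes (black), Pygo2 peaks (blue) and β-catenin peaks (orange) along the 5 chains of 3 or more snRNA genes, in kb from the start of the first gene. All 19 Pygo2 and 2 β-catenin peaks stand next to a gene, and in each chain other than that of 3 genes on chromosome 4 at least 1 gene has none.

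The share of genes with a Pygo2 peak differed between annotated lengths, described here without a test. Of the 9 genes of 116 bp, 6 had a Pygo2 peak (66.7%, interval 35.4 to 87.9%), and of the 13 genes of 191 bp 5 did (38.5%, interval 17.7 to 64.5%). At 141 bp it was 2 of 5 genes, and at 164 bp 2 of 34. The most frequent length was 107 bp, that of Rnu6, and 4 of these 383 genes had a Pygo2 peak (1.04%, interval 0.407 to 2.65%). Of 84 genes of 104 bp none did. The genes of 191 bp with a Pygo2 peak all lie in the chains on chromosomes 1 and 11. Those of 116 bp include the chain on chromosome 4 and the neighbours Gm25313 and Rnu5g. The length groups thus partly repeat the chains, and their intervals treat neighbours as independent. The lengths were chosen with the calls in view and do not by themselves assign a predicted gene to a family.

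The 4 genes of 107 bp with a Pygo2 peak stood alone. Gm24019 on chromosome 10 had a peak 379 bp below it that lay 122 bp from an end of Med16, a Mediator subunit gene. Gm26243, also on chromosome 10, had one at 223 bp that was 958 bp from an end of Tmem259. Gm25064 on chromosome 9 had one at 361 bp, and Gm24204 on chromosome 15 one at 226 bp, with Skor1 and Syngr1 as the nearest protein-coding genes at 5.24 and 2.56 kb. LOC115487699 on chromosome 1, of 116 bp, had a peak at 315 bp, 745 bp from the nearest end of Alyref2. Gm24830 on chromosome 3 (96328425 to 96328590) had a peak that overlapped it by 74 bp, the nearest protein-coding gene, Fcgr1, being 34.4 kb away.

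Some of these peaks were also near a protein-coding gene. The share of all Pygo2 peaks near such a gene is not given here, so the counts below cannot be called high or low. Of the 34 Pygo2 peaks, 10 had their centre within 1 kb of an end of a protein-coding gene and 24 did not, and with an end counted within 500 bp the number was 5. At 8 of the 28 genes every peak was of this kind. Without such peaks, 20 genes kept a Pygo2 peak, 8 of the 17 named and 12 of the 980 predicted ones. Rnu7, beside Grcc10, and Rnu3a, 842 bp from an end of Gtf3c6, a gene for a subunit of the RNA polymerase III factor TFIIIC, were the named genes that dropped out. Among peaks further away, the nearest protein-coding gene was Cilk1 at 3.84 kb for Rn7sk, Taf12 at 4.08 kb for Rnu11, Arl4d at 6.93 kb for Rnu2-10 and Parp16 at 13.0 kb for Rnu5g. It was Snx6 at 7.46 kb for Gm22317 and Igdcc3 at 9.78 kb for Gm25313.

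The β-catenin peaks at snRNA genes were 5, since LOC115488100 and Gm23296, neighbours of 107 bp on chromosome 12, shared the peak at 52603944 to 52604112. It lay 134 bp above the first and 457 bp below the second, inside the long non-coding RNA gene Gm35239, with Arhgap5 as the nearest protein-coding gene at 32.1 kb. The peak at Gm25101 on chromosome 15 was 499 bp away and inside Cdh12, a cadherin gene, and the nearest end of a protein-coding gene was that of Acot10 at 448 kb. The peak at Gm26020 on the X chromosome was 390 bp away and inside Atrx, a chromatin remodeller gene. Genes with peaks of both proteins were Gm23287 and LOC115487916, which are 33.3% of the 6 genes with a β-catenin peak and 7.14% of the 28 with a Pygo2 peak. Both lists were called over the same IgG library. The corresponding shares over all genes are not given here, so 33.3% and 7.14% cannot be called high or low.

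All peaks carry a deposited score of 1 and could be ordered only by their position in the list, whose sort order the headers do not state. The 34 Pygo2 peaks at snRNA genes had a median position at 5.53% of the list and a range of 0.0420 to 76.2%. Of them 22 were in the first 10% of the list, and 8 were among its 71 first peaks. With a window of 250 bp the median was 1.48%. The 12 peaks at named genes had a median of 1.79% and all were in the first 14.5%, with Rnu1a1 at position 22, Rnu7 at 28, Rnu11 at 35 and Rnu3b1 at 36. The 22 peaks at predicted genes had a median of 6.79%. The 5 β-catenin peaks lay between 10.4 and 80.3% of their list, with a median of 35.0%. Neighbouring positions could follow genome order. Positions 1036 and 1037 of the Pygo2 list start at 87442761 and 87462786 on chromosome 11. Positions 3032 and 3033 start at 96328332 and 96440705 on chromosome 3. Small differences in position may therefore carry no rank. The values describe the order within each list and do not compare the lists.

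**Figure D5:**
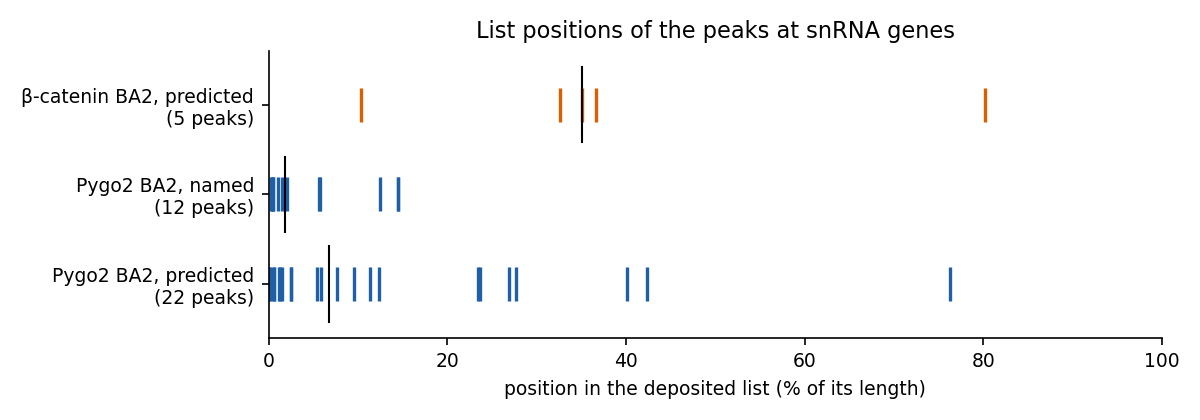
Position of the peaks at snRNA genes in the deposited lists, as percent of the list's length, with 1 tick per peak and the median as a black line; rows are β-catenin peaks at predicted genes and Pygo2 peaks at named and predicted genes. All 12 Pygo2 peaks at named genes lie in the first 14.5%, and the median of the β-catenin peaks is 35.0%.

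Genes for proteins that transcribe and process snRNAs were examined by the ends of the protein-coding genes. Of 48 such genes found in the table, Pygo2 peaks were centred 1 kb or less from an end of 18 (37.5%, interval 25.2 to 51.6%), against 16.6% of all protein-coding genes. A β-catenin peak lay there at 5 (10.4%, interval 4.53 to 22.2%), against 2.02% of all protein-coding genes. With an end counted within 500 bp the β-catenin number was 3 of 48, against 1.50% of all protein-coding genes. Peaks of both proteins were present at Ell, Ints7 and Tgs1. At Ints7 on chromosome 1, a subunit gene of the Integrator complex that cuts the ends of snRNAs, the β-catenin peak (191575600 to 191575768) overlapped the Pygo2 peak (191575613 to 191575779) by 156 bp. At Tgs1, which encodes the enzyme that modifies the snRNA cap, the centres were 100 bp and 166 bp from an end, and the peaks did not overlap. At Ell, an elongation factor gene, they were 818 bp and 594 bp away, also without overlap.

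Of the 5 SNAPc genes on this list 1 had such a Pygo2 peak, Snapc2 at 61 bp. Pou2f1, whose product Oct-1 binds the octamer of snRNA promoters, had one at 127 bp. The transcription factor genes Tbp, Bdp1, Brf2, Sp1 and Zfp143 of the same list had none within 1 kb. Their nearest Pygo2 peaks were 1.44, 3.83, 16.3, 24.5 and 68.9 kb from an end. Of 14 Integrator genes, 3 had a Pygo2 peak and 3 a β-catenin peak, that of Ints2 lying 23 bp from an end. Among the genes of snRNP assembly, 3 of 6 Gemin genes had a Pygo2 peak, with Gemin6 at 11 bp, and Coil, the gene of the Cajal body protein coilin, had one at 5 bp. For Smn1, Phax, Ncbp1 and Ncbp2 the nearest Pygo2 peak was 15.3, 13.4, 217 and 44.9 kb from an end. Zcchc8, a gene of the nuclear RNA decay machinery, had one at 16 bp. For the 7SK particle, Mepce, which caps 7SK RNA, and Hexim1, through which it inhibits P-TEFb, had Pygo2 peaks at 109 and 175 bp, while that nearest to Larp7 was 87.7 kb away.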

How the data were processed

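Per the file headers, the authors ran HOMER findPeaks for factor peaks on 1 library per list, with IgG BA1 as control. A peak needed at least 11 tags for β-catenin or 10 for Pygo2 (false discovery rate 0.001), a 2-fold excess over the control and over the local 10000 bp, and a Poisson p-value of 1e-04 for each. Positions counted for 1 tag at most, and peaks averaged 14.6 and 15.5 tags. Bowtie, Bowtie2, HOMER and mm10 appear, without versions, in the submitters' processing notes. The deposited lists give coordinates, a name and a score that is 1 throughout.

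Coordinates are 1-based. Genes on scaffolds were recognised by starts that fall back to small values after the last gene of a chromosome. Distances run from the peak centre to the gene, whose strand the gene table does not give. None of the 1004 genes has its own RefSeq promoter entry, so windows of neighbours were used. Predicted genes are those with Gm or LOC symbols. The text names every gene with a Pygo2 or β-catenin peak, all named genes, the nearest protein-coding genes, and of the 48 matched protein genes (of 49) those with both peaks and the 5 with 1 protein's peak nearest to an end (Coil, Gemin6, Zcchc8, Ints2 and Snapc2). Pou2f1, Mepce, Hexim1, Larp7, Tbp, Bdp1, Brf2, Sp1, Zfp143, Smn1, Phax, Ncbp1 and Ncbp2 were added for their roles after their values were seen. For predicted genes the rule asked only for the 10 nearest to a peak. The members and lists were chosen with earlier results of these data known, and the chains, the length groups and the U7 word after the peaks at these genes had been seen. No chance test was run. The distance code was tested on simulated peaks. Python 3.11.15, NumPy 2.4.6, pandas 2.3.3, SciPy 1.17.1 and Matplotlib 3.10.9 were used.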

Additional observations from a re-analysis of the deposited data

How the results depend on the processing

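The excess of named over predicted genes with a Pygo2 peak was 45.7 to 60.7 percentage points under windows of 250, 1000 and 2000 bp, distance to the middle of the gene, the first-listed 50% of each list, peaks away from protein-coding ends, merged neighbours and only Rnu and Rn7sk symbols as named. Counting only peaks that overlap the gene, it was 17.3 points, with 6 genes for Pygo2, 1 for β-catenin and 0 for both. The β-catenin difference became 5.27 points at 1000 bp and 5.17 at 2000 bp, through Rn7sk, and its gene count was 3 at 250 bp. Genes with both peaks numbered 1 without peaks near protein-coding ends, and 0 had peaks overlapping by 50% of the shorter peak. Peaks also at a protein-coding gene were 5 for Pygo2 within 500 bp and 2 for β-catenin within 5 kb. The protein gene count for β-catenin was 3 of 48 within 500 bp and 3 of 48 in the first-listed 50%. The shares of all protein-coding genes at these settings were 1.50% and 1.09%. With 1 library per protein, no replicate could be left out. No paired analysis was possible because each group has 1 library and the lists carry no replicate numbers. Tags per peak were not used, so the depth behind a single peak is known only as the caller's minimum.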

Other observations

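Genes of other small RNAs were also set against the lists. Rmrp, the RNA of RNase MRP, had a Pygo2 peak 317 bp away, and Rn7s1, a 7SL RNA gene, one 110 bp away. For Rn7s2, a further 7SL gene, the nearest Pygo2 peak was 176 kb away. Rny1, a Y RNA gene, had a β-catenin peak 476 bp away and its nearest Pygo2 peak at 7.22 kb, and Rny3 had a Pygo2 peak at 774 bp. The nearest Pygo2 peak was 116 kb from Rpph1, the RNA of RNase P, and 26.0 kb from Terc, the telomerase RNA gene. Of the annotated pseudogenes of named snRNAs, Rnu6-ps1 was closest to a Pygo2 peak, at 3.39 kb, and Rnu7-ps1 to a β-catenin peak, at 7.27 kb.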
